A study of Oryza sativa Indica Group with 6 samples.

Results

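EXPB9, EXPB10, EXPB4 and EXPB17 are 4 beta-expansin genes of rice, followed here through the development of the pollen grain. They were picked from earlier results on these same arrays for strong or opposite stage patterns, so their own stage values are given as a description, without a test. They were found by synonym in a RefSeq gene table of the Japonica Group. They are 4 of the 15 genes matched there by a beta-expansin name, and of the 17905 with their own probe set on the array. A probe set is a group of probes for 1 transcript. The 4 genes have 5 such probe sets, 2 of them for EXPB17, and all 5 are described.

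The plants were of the Indica Group variety Guichao No.2 and were grown in the field. Male gametophytes were taken as uninucleate microspores (UNM), which hold a single nucleus, as bicellular pollen (BCP), which holds a vegetative cell and a generative cell, and as tricellular pollen (TCP), in which the generative cell has given rise to the sperm cells. Each of the 3 stages had 2 biological replicates on an Affymetrix array each, 6 arrays in all, with no mutant, treatment or other tissue. How the microspores and pollen were freed from the anther is not given in the sources used here.

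Expansins are small secreted proteins that loosen plant cell walls without cutting their polymers. They fall into alpha-expansins, beta-expansins and the lesser known expansin-like proteins, and grasses are rich in beta-expansins. The group-1 pollen allergens of grasses, such as those of maize and ryegrass, are beta-expansins released by the pollen grain, and the maize protein is known to loosen grass walls, with a role at the stigma and style when the pollen tube grows. Other beta-expansins are active in growing vegetative organs.

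All levels below are signals on the log2 scale, so that a difference of 1 is a doubling of signal. The signal of 1 probe set is not comparable with that of another, and only stages are compared. The 64 reporter probe sets, for laboratory genes that rice lacks, served as a measure of background. Their 95th percentile was 5.22 and 5.00 in UNM, 5.60 and 5.70 in BCP and 5.72 and 5.84 in TCP. A signal under that level is called at background. The highest signals of tested probe sets lay between 13.74 and 14.02 on all 6 arrays. Precision is limited by the small number of arrays. Fewer cells of a type and less RNA per cell cannot be told apart in these samples.

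EXPB9 (gene 4349301) had signals of 4.56 and 3.91 in UNM, 12.87 and 12.92 in BCP and 13.13 and 12.95 in TCP, 1 value per array. It was at background in microspores and close to the top of the scale in both pollen stages. The stage means were 4.24 ± 0.46 in UNM, 12.90 ± 0.03 in BCP and 13.04 ± 0.13 in TCP (SD, n = 2 arrays each, as throughout). The BCP mean was 8.66 (SE 0.22) above that of UNM. Because UNM was at background, the ratio is a bound against the reporters' 95th percentile. As deposited, the signal was at least 221-fold higher in BCP than in UNM and at least 244-fold higher in TCP than in UNM. All bounds given here were computed on the deposited scaling only.

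EXPB10 (gene 4331325) took a similar course. Its signals were 3.93 and 3.50 in UNM, 11.29 and 11.31 in BCP and 11.94 and 11.81 in TCP. Again no microspore array reached background and every pollen array was far above it. BCP stood 7.59 (SE 0.17) above UNM, at least 73.0-fold by the same bound, and TCP stood 8.16 (SE 0.17) above UNM, at least 109-fold. TCP minus BCP was 0.57 (SE 0.17) for EXPB10 and 0.14 (SE 0.22) for EXPB9, and whether these differ was not tested. The profiles of the 2 genes over the 6 arrays, each centred on its own mean, differed by a root mean square of 0.45.

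EXPB4 (gene 4349350) had the opposite course. Its signals were 9.03 and 9.35 in UNM, 4.25 and 4.13 in BCP and 3.89 and 4.32 in TCP. Both microspore arrays were above background and all 4 pollen arrays were below it, with BCP and TCP arrays overlapping. BCP minus UNM was -5.00 (SE 0.19), and TCP minus UNM was -5.08 (SE 0.19). By the background bound the signal was at least 11.6-fold lower in BCP than in UNM and at least 10.6-fold lower in TCP than in UNM. Its probe set carries the suffix that Affymetrix gives to probes shared by several transcripts, although the annotation pairs it with EXPB4 alone.

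EXPB17 (gene 4336479) was lowest in the middle stage. Its brighter probe set gave 8.51 and 8.41 in UNM, 7.36 and 7.23 in BCP and 8.50 and 8.59 in TCP, above background on all 6. The BCP arrays lay below all others, while UNM and TCP arrays overlapped. BCP minus UNM was -1.16 (SE 0.13), a 2.24-fold lower signal in BCP, and TCP minus BCP was 1.25 (SE 0.13), a 2.38-fold higher signal in TCP. TCP minus UNM was 0.09 (SE 0.13).

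The other EXPB17 probe set did not show this dip. It gave 4.86 and 5.00 in UNM, 5.32 and 5.39 in BCP and 5.97 and 5.44 in TCP, of which 1 UNM array and 1 TCP array exceeded the reporters' 95th percentile. Its BCP minus UNM was 0.43 (SE 0.19), of the opposite sign to that of the brighter probe set, and its TCP minus BCP was 0.35 (SE 0.19). The centred profiles of the 2 probe sets differed by a root mean square of 0.68.

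**Figure D1:**
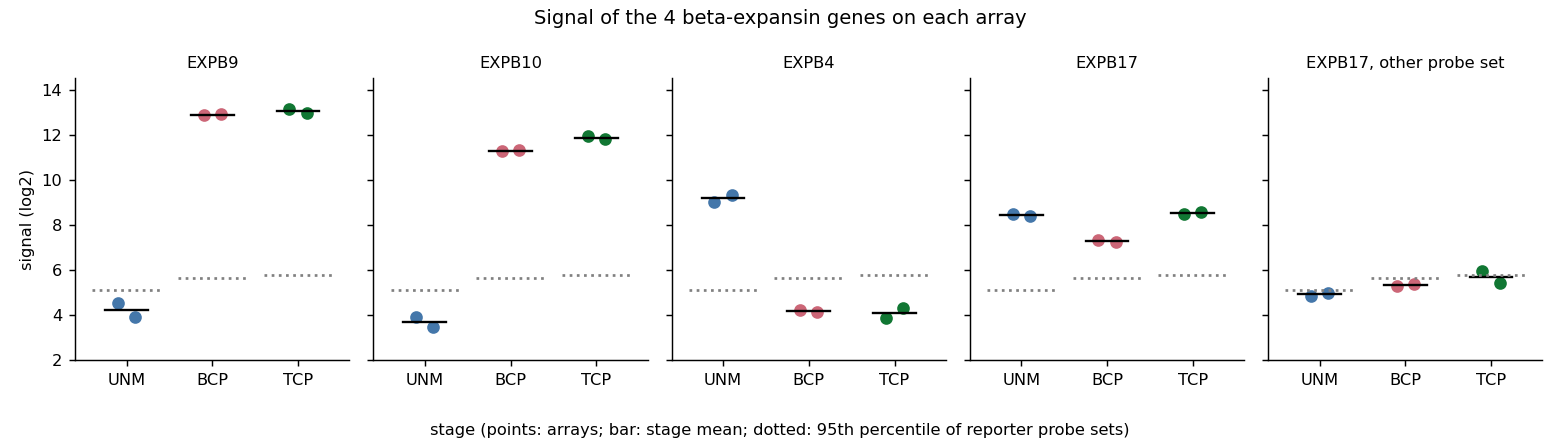
Signal (log2) of the 5 probe sets of EXPB9, EXPB10, EXPB4 and EXPB17 by stage, with 1 point per array, a bar at the stage mean (n = 2) and a dotted line at the mean of the reporters' 95th percentile of that stage. EXPB9 and EXPB10 lie below the dotted line in UNM and between 11.29 and 13.13 in BCP and TCP, EXPB4 is above the line in UNM alone, and EXPB17 dips to 7.36 and 7.23 in BCP in its brighter probe set and not in the other.

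Here each of the 4 genes is taken by its brightest probe set. Between BCP and UNM the arrays of the 2 stages did not overlap for any of the 4 genes, of which 2 were higher and 2 lower in BCP. The other EXPB17 probe set did not overlap in any of the comparisons either, but was higher in the later stage in each. Over all 17905 genes, each taken by its brightest probe set, 17.1% rose and 25.1% fell in that comparison, where a gene rose or fell if its limma adjusted p (Benjamini-Hochberg, over all 57194 tested probe sets) was under 0.05 and the difference at least 1. Among all tested probe sets the shares were 9.27% and 12.3%. Between TCP and BCP the arrays did not overlap for EXPB9, EXPB10 and EXPB17, and over all genes 8.52% rose and 28.6% fell (5.94% and 13.3% of probe sets). Between TCP and UNM they did not overlap for EXPB9, EXPB10 and EXPB4, and over all genes 14.4% rose and 37.7% fell (12.1% and 17.9% of probe sets). Arrays that do not overlap are a different measure from these shares, and their share over all genes was not counted. For EXPB9 the TCP and BCP arrays did not overlap at a difference of only 0.14 (SE 0.22). Since the 4 genes were picked on these contrasts, nothing is read from the counts of genes whose arrays did not overlap.

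With each of the 4 genes taken by its brightest probe set, BCP minus UNM kept its sign under every scaling tried. Under 5 other scalings of the arrays, BCP minus UNM ran from 8.40 to 8.83 for EXPB9, from 7.33 to 7.76 for EXPB10 and from -5.26 to -4.80 for EXPB4. For EXPB17 it ran from -1.43 to -0.997 by the brighter probe set, but from 0.16 to 0.59 by the other, of the opposite sign. TCP minus BCP depended on the scaling. The 27 probe sets for control transcripts of bacteria and phage, added with the sample at hybridization, averaged 9.85 and 9.77 on the TCP arrays, against 8.88 and 8.71 on the BCP arrays.

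With the arrays scaled to equal control signals, TCP minus BCP was -0.87 for EXPB9, -0.45 for EXPB10, -1.10 for EXPB4 and 0.23 for EXPB17, while the median of all probe sets was at -0.87, against 0.14 as deposited. Without the cre controls, which moved less, the difference of EXPB17 was 0.02. TCP minus UNM of EXPB17 was 0.09 as deposited and -0.05 after centring on the median, but ran from -1.41 with the controls without cre to 0.71 after a repeated quantile normalisation. From the controls without cre to centring on the 75th percentile, TCP minus UNM ran from 7.31 to 9.16 for EXPB9 (8.80 as deposited). It ran from 6.67 to 8.52 for EXPB10 (8.16 as deposited) and from -6.57 to -4.72 for EXPB4 (-5.08 as deposited).

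**Figure D2:**
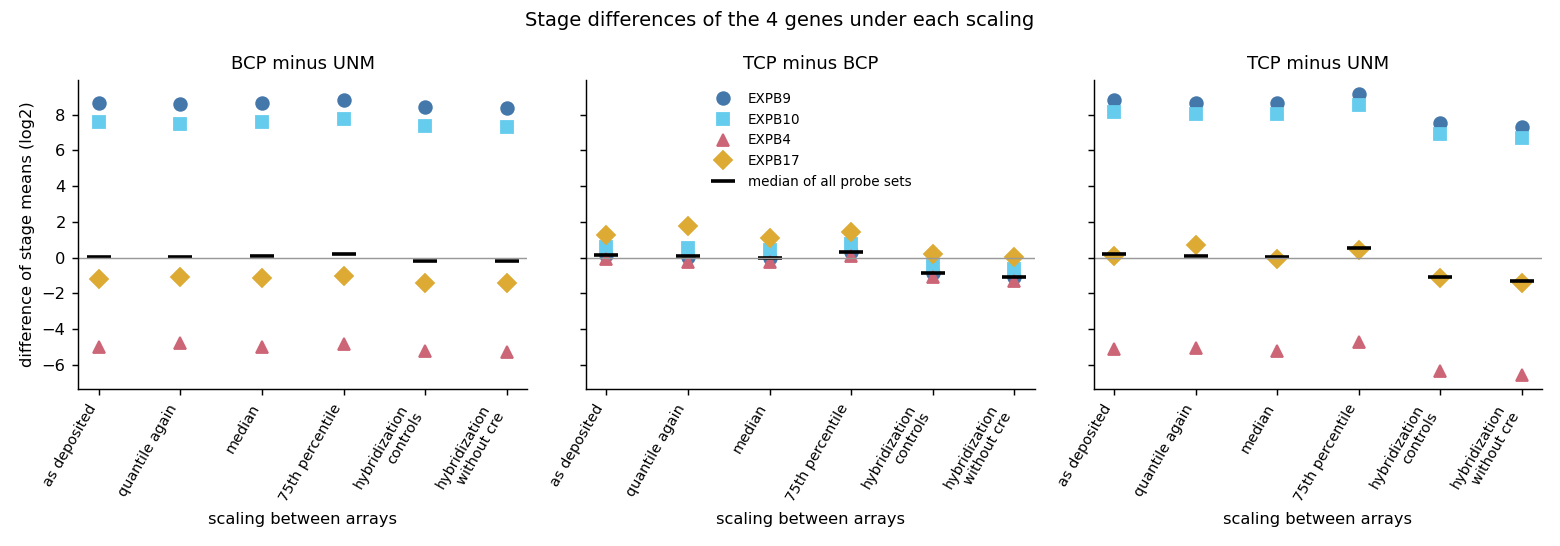
Difference of stage means (log2) of the 4 genes in each comparison as deposited and under 5 other scalings of the arrays, with the median of all tested probe sets as a black bar. Each gene is shown by its brightest probe set, and the other EXPB17 probe set is left out. BCP minus UNM keeps its sign for every probe set shown. TCP minus BCP of EXPB9 is 0.14 as deposited and -0.87 with the hybridization controls, and that of EXPB17 is 1.25 as deposited and 0.23 with them.

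The rest of the family was read against the test. The 4 genes had been taken out of it for strong or opposite stage patterns on these same arrays. The counts and medians of the genes left, in all 3 comparisons, are therefore a description. Nothing is read from how they compare with all genes. Among the 11 other beta-expansin genes, 7 had a probe set of their own, and EXPB5, EXPB14, EXPB15 and EXPB16 were not analysed here. In BCP against UNM, 3 of the 7 fell and 0 rose by limma, also at an unadjusted p under 0.05, where 25.1% of all genes fell and 17.1% rose, and their median difference was -0.34, against -0.12 over all genes. EXPB3, next to EXPB4 in the genome, had signals of 5.07 and 5.44 on the BCP arrays, against 9.48 and 9.52 on the UNM arrays. All its BCP signals were at background, and the fall was -4.25 (SE 0.20, limma adjusted p = 4.69e-06), at least 14.4-fold. EXPB11 had 4.86 and 5.31 on the BCP arrays, against 6.63 and 7.10 on the UNM arrays, and fell by 1.78 (SE 0.21, limma adjusted p = 0.000468). EXPB2 had 4.70 and 4.55 on the BCP arrays, against 6.04 and 5.94 on the UNM arrays, and fell by 1.37 (SE 0.13, limma adjusted p = 0.000124). For EXPB11 and EXPB2 the background bounds were at least 2.32-fold and at least 1.26-fold. None of the 7 genes shared the course of EXPB9 and EXPB10: the highest difference among them was 0.08, for EXPB6. The family was matched by name only, so a beta-expansin without such a name in the gene table would be missed.

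In TCP against BCP, 1 of the 7 rose and 0 fell by limma (8.52% and 28.6% of all genes), with 4 higher and 0 lower at an unadjusted p under 0.05 and a median difference of 0.36, against -0.06 over all genes. EXPB11 rose by 1.01 (SE 0.21, limma adjusted p = 0.00885), with 6.04 and 6.16 on the TCP arrays, against 4.86 and 5.31 on the BCP arrays. Its BCP signals were at background, and the bound was at least 1.36-fold. The call rested on single arrays. Without BCP replicate 1 the difference was 0.79 (limma adjusted p = 0.0622), and without TCP replicate 2 it was 0.95 (limma adjusted p = 0.0394), under the minimum of 1. It was -0.01 after scaling by the hybridization controls.

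EXPB6 had 5.78 and 5.97 on the TCP arrays, against 5.01 and 5.25 on the BCP arrays. Its difference of 0.75 (SE 0.15, limma adjusted p = 0.00634) was under the minimum of 1, and TCP was the only stage in which both of its arrays exceeded background.

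In TCP against UNM, 2 of the 7 fell and 0 rose by limma (37.7% and 14.4% of all genes), with 1 higher and 3 lower at an unadjusted p under 0.05. EXPB3 had 5.93 and 5.44 on the TCP arrays, against 9.48 and 9.52 on the UNM arrays, and fell by 3.82 (SE 0.20, limma adjusted p = 3.95e-06). EXPB2 fell by 1.01 (SE 0.13, limma adjusted p = 0.000461), barely past the minimum of 1, with a bound of at least 1.16-fold. Without TCP replicate 1 its difference was -0.98, and without UNM replicate 1 it was -0.96. EXPB11 had -0.77, which did not pass, and -1.01 without UNM replicate 1, which did (limma adjusted p = 0.0179).

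The other 3 genes were near background throughout. The range of the stage means was 0.34 for EXPB8, 0.34 for EXPB7 and 0.04 for EXPB18, and none of their differences passed. Of their 18 signals 1 exceeded the reporters' 95th percentile, that of EXPB7 on the array of UNM replicate 2.

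**Figure D3:**
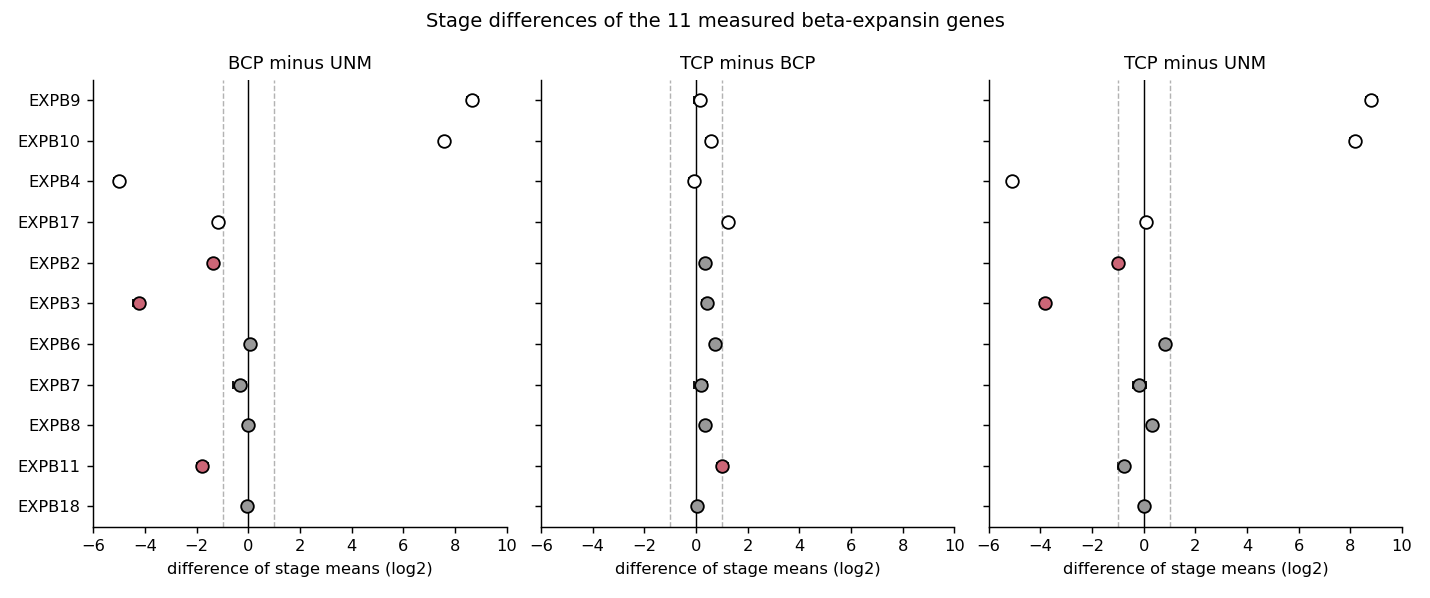
Difference of stage means (log2, with the SE of the limma fit, mostly hidden by the symbol) of the 11 measured beta-expansin genes in the 3 comparisons. Open circles are the 4 genes picked on these contrasts, red circles are other genes that passed the test, grey circles are those that did not, and dashed lines mark differences of 1. EXPB9 and EXPB10, picked for their strong courses, are at 8.66 and 7.59 in BCP minus UNM, and EXPB3 at -4.25 lies nearest to EXPB4.

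Position along the chromosome was not used to pick the genes. In the RefSeq table EXPB6, EXPB2, EXPB3 and EXPB4 follow each other with 0 genes between them. Within this row the stage courses differed. EXPB3 and EXPB4 both had UNM signals over 9, and their centred profiles differed by a root mean square of 0.60. EXPB4 is read by a probe set that may be shared with other transcripts, and whether EXPB3 is among them was not tested. EXPB2 was above background in UNM alone, and EXPB6 was above it on both arrays in TCP alone. EXPB9 lies on the same chromosome, 49 genes away from EXPB6, and ran opposite to EXPB3 and EXPB4.

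The genes up to 3 places on either side of each of the 4 were looked at as well, a window set after the data had been seen. Of these 24 genes 15 had a probe set. In BCP against UNM 4 of the 15 rose (26.7%, against 17.1% of all genes) and 6 fell (40.0%, against 25.1%). These shares rest on few genes, 3 of them the beta-expansins beside EXPB4. In TCP against BCP 1 rose (6.67%, against 8.52% of all genes) and 7 fell (46.7%, against 28.6%). In TCP against UNM 2 rose (13.3%, against 14.4%) and 8 fell (53.3%, against 37.7%).

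The gene directly beside EXPB10, gene 4331323, carries no name in the tables, and whether it encodes a beta-expansin was not looked up. It was singled out after its values were seen. It had signals of 5.30 and 5.09 in UNM, 13.10 and 13.09 in BCP and 13.47 and 13.48 in TCP. Its pollen signals were near the top of the scale, and its UNM signals were just above background. BCP was 7.90 (SE 0.13) higher than UNM (limma adjusted p = 1.29e-07). On the other side of EXPB10 none of the 3 nearest genes was measured. Beside EXPB9, the 4 measured neighbours had BCP minus UNM between -1.68 and 2.31, and beside EXPB17 the 5 measured ones had values between -3.12 and 4.43.

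**Figure D4:**
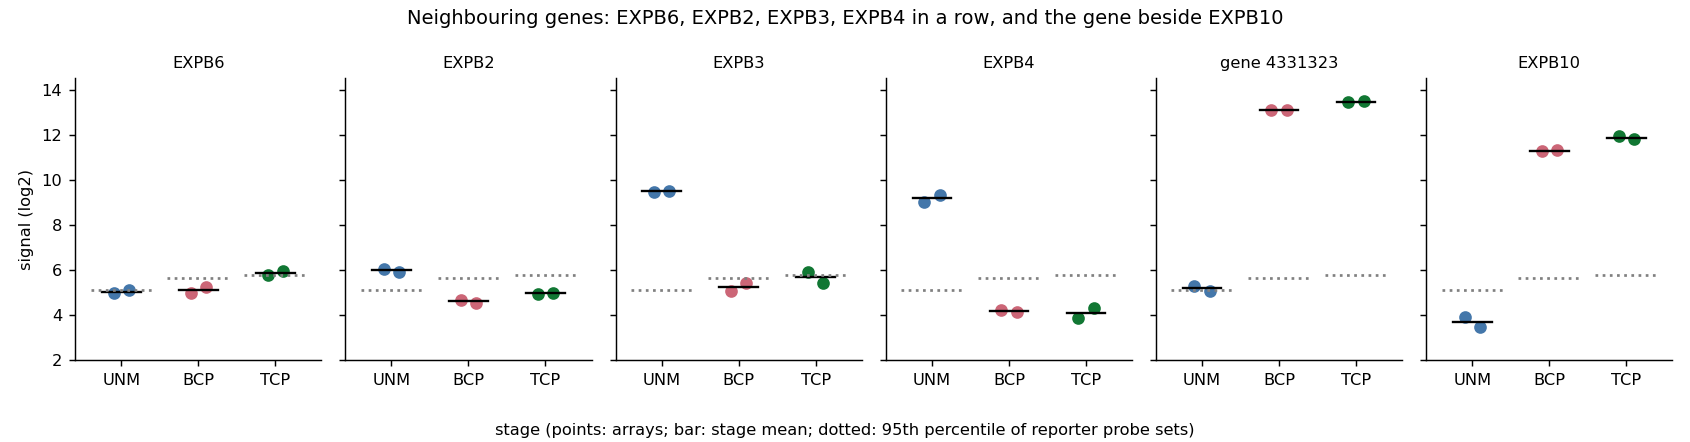
Signal (log2) by stage of EXPB6, EXPB2, EXPB3 and EXPB4, which follow each other in the genome, and of gene 4331323 and EXPB10, which are next to each other, with 1 point per array, a bar at the stage mean (n = 2) and a dotted line at the reporters' 95th percentile. EXPB3 and EXPB4, whose probe set may be shared with other transcripts, are high in UNM alone, while gene 4331323 and EXPB10 are high in BCP and TCP.

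For each of the 4 genes the 5 most alike probe sets among the 3155 of genes with a name were taken, by the root mean square difference of the 6 centred signals. EXPB9 and EXPB10 shared their nearest gene. ADF-9, an actin-depolymerizing factor, lay at 0.21 from EXPB9 and at 0.25 from EXPB10, with stage means of 3.94 ± 0.33 in UNM, 12.13 ± 0.06 in BCP and 12.50 ± 0.03 in TCP. MPK17, a MAP kinase, VLN4, of the actin-bundling villins, and CPK2, a calcium-dependent protein kinase, were also on both lists, at 0.77, 0.78 and 0.84 from EXPB9 and at 0.38, 0.42 and 0.59 from EXPB10. The remaining genes were GBSS-I, the granule-bound starch synthase, at 0.54 from EXPB9, and mfs1 at 0.58 from EXPB10. GBSS-I was lower in TCP (11.32 ± 0.04) than in BCP (12.22 ± 0.00), and the probe sets of GBSS-I and VLN4 may cross-hybridise by their suffix.

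Within a root mean square of 0.5 there were 49 of 57189 probe sets, named or not, for EXPB9 and 66 for EXPB10. A flat profile lies at 4.12 from EXPB9 and at 3.72 from EXPB10, and such strong courses, for which both were picked, leave few probe sets within a fixed distance.

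EXPB4 had 385 such probe sets (0.673%). The named genes nearest to it were Osr40c1 at 0.16, the auxin response factor ARF13 at 0.17, the calcium-dependent kinase CPK19 at 0.18, the phospholipase gene PLA2-III at 0.18 and the cyclin gene CYCP3-1 at 0.18. Of these Osr40c1 kept signals well above background in pollen (12.15 ± 0.02 in UNM, 7.25 ± 0.04 in BCP and 7.02 ± 0.00 in TCP).

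EXPB17 was taken by its brighter probe set alone, from which its other probe set lay at 0.68. For it the measure separates little, since a flat profile lies at 0.57 from it and 7807 probe sets (13.7%) lay within 0.5. The nearest named genes were the laccase gene LAC4 at 0.12, the protein phosphatase gene OsPP2C70 at 0.12, the autophagy gene APG12 at 0.13, the GRAS family gene CIGR1 at 0.14 and the protein phosphatase gene OsPP2C36 at 0.14. By its suffix the probe set of APG12 may be shared by several transcripts.

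**Figure D5:**
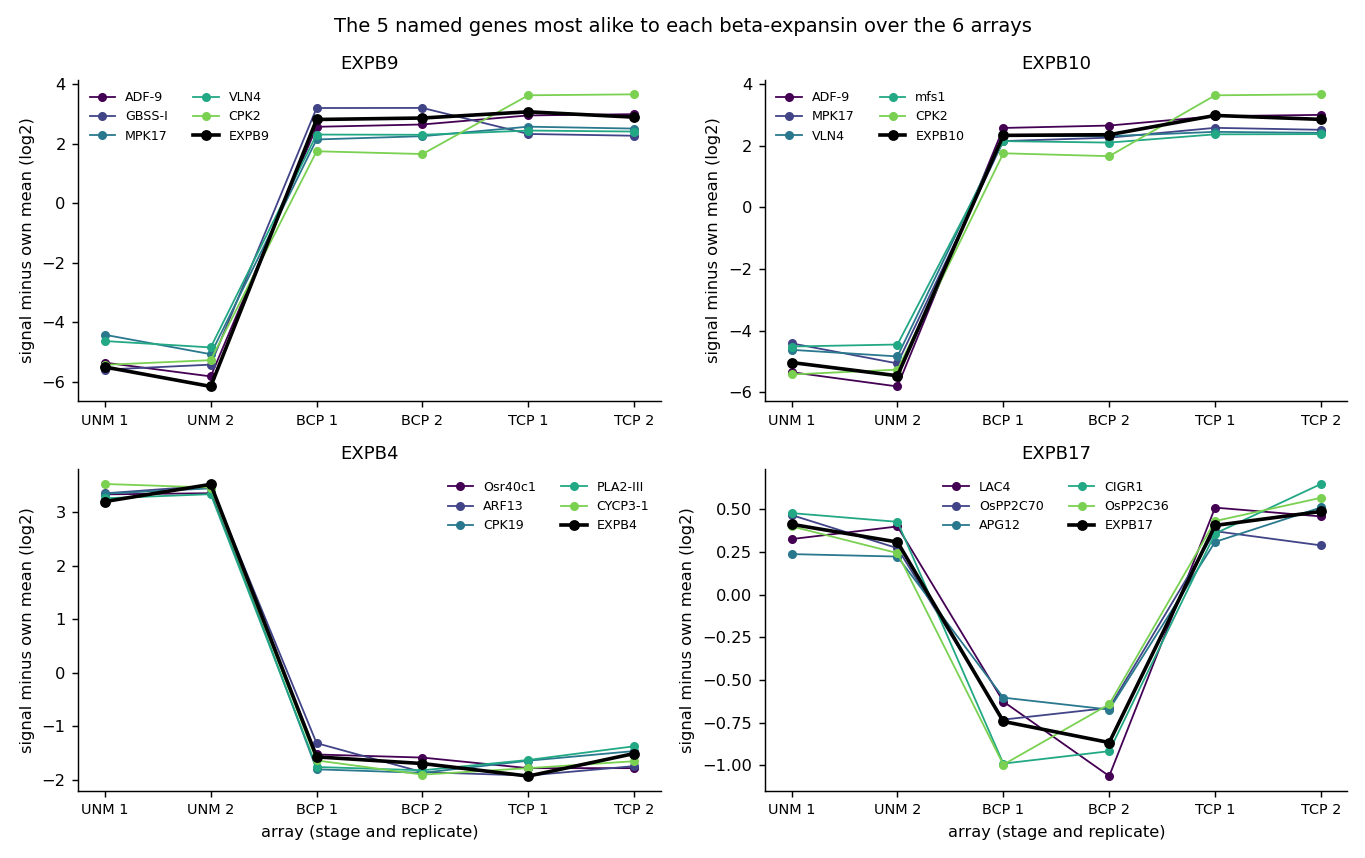
Signal minus the probe set's own mean over the 6 arrays (log2) for EXPB9, EXPB10, EXPB4 and EXPB17 (thick black) and for the 5 named genes most alike to each, by array, with a vertical scale of its own in each panel. ADF-9, MPK17, VLN4 and CPK2 appear beside both EXPB9 and EXPB10.

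Other wall genes gave the setting. Of 14 measured alpha-expansin genes, the branch of the family best known from acid-induced growth, 2 rose and 6 fell in BCP against UNM, 3 rose and 0 fell in TCP against BCP (0 lower at an unadjusted p under 0.05), and 2 rose and 5 fell in TCP against UNM. Over all genes 17.1% rose and 25.1% fell in BCP against UNM, 8.52% and 28.6% in TCP against BCP, and 14.4% and 37.7% in TCP against UNM, and nothing particular to the alpha-expansins is read from their counts. EXPA32 rose in both steps, with 2.99 ± 0.02 in UNM, where it was at background, 7.98 ± 0.05 in BCP and 11.69 ± 0.09 in TCP. EXPA26, at background in UNM, rose by 4.85 (SE 0.14) in BCP against UNM, at least 20.5-fold, and by 1.75 (SE 0.14) in TCP against BCP.

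Of 4 expansin-like genes 0 passed in the 2 consecutive steps by limma (1 lower in BCP against UNM and 0 in TCP against BCP at an unadjusted p under 0.05). Over all genes 17.1% rose and 25.1% fell in BCP against UNM, and 8.52% and 28.6% in TCP against BCP. Nothing is read from a count over so few genes. EXLA1 fell by 1.33 (SE 0.25) in TCP, where it was at background, against UNM. XTH8, the 1 xyloglucan endotransglucosylase matched, fell by 4.16 (SE 0.24) in BCP against UNM and by 3.74 (SE 0.24) in TCP against UNM. Of 4 genes of cellulose synthase-like D proteins, which serve tip-growing cells, CSLD5 was at background in UNM and BCP and rose by 5.74 (SE 0.13) in TCP against BCP, at least 25.5-fold by the background bound. Its 1.61 (SE 0.13) in BCP against UNM passed the test but compares levels under background. CSLD2 was at background in BCP, and fell by 1.15 (SE 0.28) there against UNM and rose by 1.43 (SE 0.28) in TCP against BCP, with bounds of at least 1.36-fold and at least 1.65-fold.

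Of 11 genes of the GLU series of endoglucanases 1 rose and 5 fell in BCP against UNM, 0 rose and 2 fell in TCP against BCP and 1 rose and 5 fell in TCP against UNM, where the shares over all genes are those just given. GLU1 fell to background in BCP against UNM (-3.91, SE 0.23), at least 5.84-fold, and GLU14, at background in UNM, rose by 2.69 (SE 0.14), at least 2.23-fold. GLU2 fell to background in TCP against BCP (-3.83, SE 0.14), at least 7.91-fold. The same pattern of names also matched 5 measured genes outside this series. Among them are the glutelin genes GLUA1, GLUA2, GLUA3 and GLUD1, which encode seed storage proteins and no glucanases, and GLUP4, whose product was not looked up. Of these genes GLUA2 rose by 3.32 (SE 0.12) in TCP against BCP and by 5.72 (SE 0.12) in TCP against UNM. Of 5 measured genes matched by the pattern for pectin enzymes only the inhibitors PMEI8 and PMEI28 belong there by name, and neither passed. The others included PGL1, which rose by 2.85 (SE 0.24) in BCP against UNM, and PL10A, which fell by 2.97 (SE 0.15). PL10B fell by 2.11 (SE 0.16) in TCP against BCP.

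Most markers of the anther wall moved with the genes high in UNM. Of 16 listed genes of the anther wall and its inner layer, the tapetum, 13 were measured, of which 0 rose and 9 fell in BCP against UNM (17.1% and 25.1% of all genes). In TCP against BCP 1 rose and 1 fell (8.52% and 28.6% of all genes), and in TCP against UNM 0 rose and 10 fell (14.4% and 37.7%). GAMYB had 9.25 and 9.09 in UNM, 8.49 and 8.25 in BCP and 4.38 and 4.59 in TCP, so that it did not pass in BCP against UNM and fell in TCP against BCP. MSP1 averaged 7.15 ± 0.21 in TCP, against 5.65 ± 0.27 in BCP, and was the marker that rose. Both were singled out after their values were seen. The log2 signals of the 13 added up to 98.1 and 98.2 in UNM, 57.7 and 58.9 in BCP and 59.1 and 59.3 in TCP. Signals at background count in this sum of log2 values, so its ratio between stages is not a share of RNA. On the UNM arrays 11 of the 13 exceeded background, and on the BCP and TCP arrays 1 or 2. EXPB4, EXPB3 and EXPB2 were highest in the same arrays. EXPB11 was highest there too and was above background on both TCP arrays. The part of anther wall tissue in these values was not tested. The light-harvesting gene CAB2R, 1 of 2 measured chloroplast markers, had 11.35 ± 0.09 in UNM, 4.55 ± 0.05 in BCP and 3.94 ± 0.10 in TCP. The other, RBCS, went the other way, with 8.35 ± 0.19 in UNM, 8.67 ± 0.28 in BCP and 9.36 ± 0.05 in TCP. RBCS did not pass in BCP against UNM and rose by 1.01 (SE 0.18, limma adjusted p = 0.00246) in TCP against UNM. Both chloroplast genes were read by their brightest probe set alone, and their further probe sets were not looked at.

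OsRac6, a small GTPase and the 1 measured gene of 5 listed for the vegetative cell and late pollen, had 9.37 and 8.97 in UNM, 13.18 and 13.12 in BCP and 12.53 and 12.47 in TCP. The 6 listed markers of male germ cells were not matched by name in the gene table, so no probe set was looked up for them and the sperm cells of TCP were not checked. As a sign of RNA quality, the 3' probe set of actin exceeded the one for the middle of the transcript by 3.06 and 3.15 in UNM, by 1.93 and 1.81 in BCP and by 1.90 and 1.91 in TCP. The same difference for GAPDH was 1.29 and 0.71 in UNM, 1.10 and 0.91 in BCP and 1.60 and 1.51 in TCP. UNM was thus highest by actin and TCP by GAPDH. The part of RNA quality in the stage differences was not tested.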

How the data were processed

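Rice male gametophytes were measured on 6 Affymetrix arrays from 5 ug of total RNA each, per the labels' protocols. For each probe set and array the authors deposited 1 log2 signal, and the submitters' processing notes name RMA. Its version and which arrays entered 1 normalisation run are not given in the sources here. Of 57381 probe sets 187 controls and reporters were left out of the tests, and 57194 were tested. The platform annotation gave 1 gene to 22436, several to 95 and no name here to 34663. All 17905 genes were found by gene ID in the RefSeq table of assembly ASM3414082v1, used for names and gene order only.

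The test was that of limma 3.58.1 (R 4.3.3), in 1 fit of 6 arrays with stage as factor (residual degrees of freedom 3, prior 3.87), two-sided, with Benjamini-Hochberg adjustment over all tested probe sets. A gene is represented by its brightest probe set, by the mean over all arrays. The p-values reflect only the spread between these arrays, which may be technical in part. The 4 genes, the lists and the tests were chosen with earlier results of these data known. Named are the 4 genes, all measured beta-expansins, the 5 most alike named probe sets of each, and per wall gene list up to 2 passing genes per comparison with the largest difference. Protein and promoter sequences were not used here. The alternatives were other scalings, leaving out an array or dim or shared probe sets, other priors and minima, every probe set of a gene, only the 2 stages compared, and a replicate block. Same-numbered arrays deviated from their stage means with correlations of -0.05, 0.01 and -0.07, so the numbers were not taken as pairs.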

Additional observations from a re-analysis of the deposited data

How the results depend on the processing

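With 2 arrays per stage, precision is limited, and a signal at background sets only a bound. As deposited, 5300 probe sets rose and 7030 fell in BCP against UNM, 3400 rose and 7593 fell in TCP against BCP, and 6903 rose and 10227 fell in TCP against UNM. Scaling changed these counts by more than 1.5 times as follows. In TCP against BCP 5521 rose after quantile normalisation, 5488 with the 75th percentile as centre, 1070 rose and 20924 fell after scaling by the hybridization controls, and 921 rose and 33406 fell without cre, a setting chosen after seeing the data. In TCP against UNM 13305 rose after centring on the 75th percentile, and with the controls 2241 rose and 30784 fell, or 1976 and 39685 without cre. Rises made up 43.0% of the changes in BCP against UNM, 30.9% in TCP against BCP and 40.3% in TCP against UNM. Scaled by all controls they made up 34.2%, 4.86% and 6.79%, and without cre 33.0%, 2.68% and 4.74%. In TCP against BCP they made up 45.6% after quantile normalisation and 44.9% with the 75th percentile, which gave 60.7% in TCP against UNM. With no minimum difference 9198, 11436 and 17658 rose in the 3 comparisons. With a minimum of 2, 2421 rose and 3222 fell, 1084 rose and 3934 fell, and 2553 rose and 6274 fell.

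Of the 7 other beta-expansin genes, 3 fell in BCP against UNM, and 1 did with a minimum of 2. The 1 that rose in TCP against BCP became 0 after centring on the median, with either set of hybridization controls and with a minimum of 2, and 2 with no minimum. Leaving out 1 array gave 0 to 1, and 2 fell with the controls without cre. In TCP against UNM 2 fell. With the 75th percentile as centre, 1 gene rose and 1 fell there, 1 rose with no minimum, 1 fell after quantile normalisation or with a minimum of 2, 5 fell with the hybridization controls and 6 without cre. Leaving out 1 array gave 1 to 2. The cause of these changes was not tested. BCP minus UNM of EXPB17 was 0.43 by its other probe set, against -1.16. Leaving out 1 array gave BCP minus UNM of 8.33 to 8.99 for EXPB9, 7.37 to 7.80 for EXPB10, -5.16 to -4.84 for EXPB4 and -1.23 to -1.10 for EXPB17. With the replicate block 5303 rose and 7026 fell in BCP against UNM, and the counts of other beta-expansin genes that passed were the same as without it.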
